A study of Mus musculus with 24 samples.

Results

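The genes described here are 6 of the 55487 listed in the deposited tables: *Fscn1*, which encodes the actin-bundling protein fascin, and 5 genes that lie beside it on mouse chromosome 5, *Actb*, *Rnf216*, *Fbxl18*, *Tnrc18* and *Slc29a4*. *Fscn1* was selected on its high level in LPs that carried sgCTCF, and the others were chosen by position, so the *Fscn1* difference in that comparison is a description without a test. The question was whether the difference at *Fscn1* extended to its neighbours, and how the 6 genes varied over all 8 groups of libraries. The cells were Cas9-LPs, lymphoid progenitor lines deficient in *Ebf1* that were derived from Rosa26-Cas9 knock-in mice, so every group, sgControl included, lacks *Ebf1* and expresses Cas9. They were grown on OP9 stromal cells, transduced with a retrovirus that encodes sgRNA and the surface marker hNGFR, and sorted as hNGFR+ CD45+ cells 5 days later. In experiment 1, LPs and Phase 1 cells carried sgControl (against luciferase) or sgCbfb. Phase 1 cells had 2 days of Notch stimulation on OP9-DLL4 cells, stromal cells that supply the Notch ligand DLL4. The stages thus differ in stromal line as well. In experiment 2, LPs carried sgControl, sgCbfb, sgCTCF or sgMed12. Each group has 3 libraries. Pooled guides were used for each gene, so a library mixes cells with different edits and, possibly, cells with none.

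CTCF is a zinc finger protein that binds insulators and anchors chromatin loops, and it can keep an enhancer from acting on genes beyond a loop. CBFβ is the partner that RUNX factors need to bind DNA stably, and MED12 is a subunit of the kinase module of Mediator, which links transcription factors to RNA polymerase II. Fascin cross-links actin filaments into the straight bundles of filopodia and dendrites. It is scarce in most blood cells and abundant in mature dendritic cells. *Actb* encodes β-actin, the filament subunit itself. *Rnf216* encodes a ubiquitin ligase, *Fbxl18* an F-box protein that selects substrates for a ubiquitin ligase, *Tnrc18* a chromatin-associated protein, and *Slc29a4* a plasma membrane transporter of monoamines.

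In GRCm38, *Fscn1* (ENSMUSG00000029581) occupies chr5:142960343-142973185 on the plus strand. *Rnf216* follows it on the minus strand, with its 3′ end 17.7 kb past the end of *Fscn1*. Before the start of *Fscn1*, and at growing distance, lie *Actb* at 53.6 kb, *Fbxl18* at 64.9 kb and *Tnrc18* at 142.7 kb, all on the minus strand, and *Slc29a4* at 237.9 kb on the plus strand. Exons of *Rnf216* overlap *Gm43380*, a processed pseudogene on the opposite strand, and no exon of another member overlaps an exon of a different gene in GENCODE M21. Near-identical processed copies of *Actb* exist elsewhere in the genome. How reads that map to several places were counted is not given in the sources used here, so the level of *Actb* is uncertain in that respect.

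The 250 bases before the annotated RefSeq starts (GRCm38.p6) are shown for the 2 genes that stood apart in sgCTCF and for *Rnf216*, the nearest gene, since it alone held a match to part of the CTCF consensus. They are written 5′ to 3′ on the strand of the gene, and capitals mark the matches. Their positions are chr5:142960105-142960354, chr5:142701851-142702100 and chr5:143113021-143113270. The GENCODE body of *Slc29a4*, used for the distances, starts at chr5:142692512, so its printed stretch lies inside that body. The bases before that GENCODE start were not searched.
Fscn1: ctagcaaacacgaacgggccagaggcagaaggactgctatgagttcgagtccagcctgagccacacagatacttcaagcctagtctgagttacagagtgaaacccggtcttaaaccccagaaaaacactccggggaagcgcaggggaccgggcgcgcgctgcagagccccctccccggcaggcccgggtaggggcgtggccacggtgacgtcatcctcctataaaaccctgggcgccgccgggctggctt
Slc29a4: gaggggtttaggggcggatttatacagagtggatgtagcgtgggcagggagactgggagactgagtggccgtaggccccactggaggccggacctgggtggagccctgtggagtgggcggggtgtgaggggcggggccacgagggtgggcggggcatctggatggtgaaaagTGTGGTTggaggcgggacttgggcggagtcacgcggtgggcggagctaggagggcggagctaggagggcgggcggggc
Rnf216: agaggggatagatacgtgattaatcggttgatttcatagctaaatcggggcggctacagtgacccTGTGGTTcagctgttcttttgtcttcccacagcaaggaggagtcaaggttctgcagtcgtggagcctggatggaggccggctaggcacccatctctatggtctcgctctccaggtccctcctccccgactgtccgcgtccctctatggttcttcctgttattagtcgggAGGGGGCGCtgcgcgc
Motifs were searched on both strands from 250 bases before to 50 bases after the start, in the 5 of 6 genes with an entry; *Actb* has none. AGNNGGCGC, part of the CTCF consensus, was found once, in *Rnf216*, against 7.23% of 32851 promoters of the same length. The RUNX motif TGTGGTT was found once each in *Slc29a4* and *Rnf216*, against 5.27% of promoters. The CArG box of serum response factor was found in none of the 5, and 1.63% of promoters hold it. The matches of *Rnf216* do not overlap each other. A match is a run of letters and not a measured site.

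Reads on genes ranged from 1363263 to 1743319 per library in experiment 1 and from 3354483 to 4326782 in experiment 2. Values are CPM, the reads of a gene relative to all reads on genes of its library, and each read marks the 3′ end of an mRNA. Of the targeted genes, *Cbfb* mRNA was 114.3 ± 8.37 CPM (SD, n = 3) in sgControl and 48.4 ± 6.93 CPM in sgCbfb LPs of experiment 2, and *Ctcf* was 391 ± 30.7 CPM in sgControl and 305.7 ± 30.0 CPM in sgCTCF. *Med12* was low, at 5.14 ± 1.26 CPM in sgControl and 7.01 ± 3.38 CPM in sgMed12, with overlapping libraries. By the test given below, the limma adjusted p was 4.34e-06 for *Cbfb*, 0.021 for *Ctcf* and 0.663 for *Med12*, each with its own guides. A small deletion need not lower the 3′ tags of an mRNA, so the values of *Ctcf* and *Med12* check the labels weakly. The study itself shows immunoblots of CBFβ, CTCF and Med12 made 3 days after the sgRNAs were introduced, as its check of their depletion. The lymphoid progenitor genes *Ptprc*, *Il7r*, *Flt3*, *Spi1*, *Cd34* and *Dntt* had reads in every group and summed to at least 1077 CPM in each library. Of the 6, 2 passed as lower in sgCTCF against sgControl by the test given below, where 10.3% of all genes tested passed. *Cd34* went from 238.8 ± 10.8 to 124.1 ± 19.1 CPM and *Flt3* from 276.1 ± 11.7 to 216.3 ± 4.02 CPM. In such bulk libraries, fewer cells that express a gene and less mRNA per cell cannot be told apart.

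*Fscn1* was nearly silent in every group but one. In sgCTCF LPs it stood at 34.9, 34.2 and 23.8 CPM, from 130, 123 and 103 reads. The sgControl libraries of the same experiment held 0.791, 1.48 and 0.73 CPM, from 3, 5 and 3 reads. Every sgCTCF library was far above every other library, and the lowest of them exceeded the highest of the other groups, 1.70 CPM in an sgMed12 library. The mean was 31.0 ± 6.22 CPM in sgCTCF and 0.999 ± 0.414 CPM in sgControl (SD, n = 3 each). Summed over the groups, 356 reads against 11 gave a ratio of 31.4, with an exact 95% interval of 17.3 to 63.4 that covers counting error only.

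The other deletions of experiment 2 left *Fscn1* at the sgControl level or below it. In sgMed12 LPs it had 1.70, 0.871 and 0.851 CPM, or 12 reads in all, and the ratio to sgControl was 1.17 (0.473 to 2.93). In sgCbfb LPs it had 1.19, 0 and 0 CPM, or 4 reads, and the ratio was 0.371 (0.0862 to 1.25). Both intervals include equal levels. In the order of means, sgCTCF was first, and sgMed12 at 1.14 ± 0.482 CPM, sgControl and sgCbfb at 0.397 ± 0.688 CPM followed without a gap beyond their spread. In experiment 1, a single *Fscn1* read was found in all 12 libraries, in an LP sgCbfb library. Its 3 sgControl Phase 1 libraries had 0 reads in 4330052, which allows up to 0.693 CPM over the group. *Fscn1* did not enter the tests of experiment 1.

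**Figure D1:**
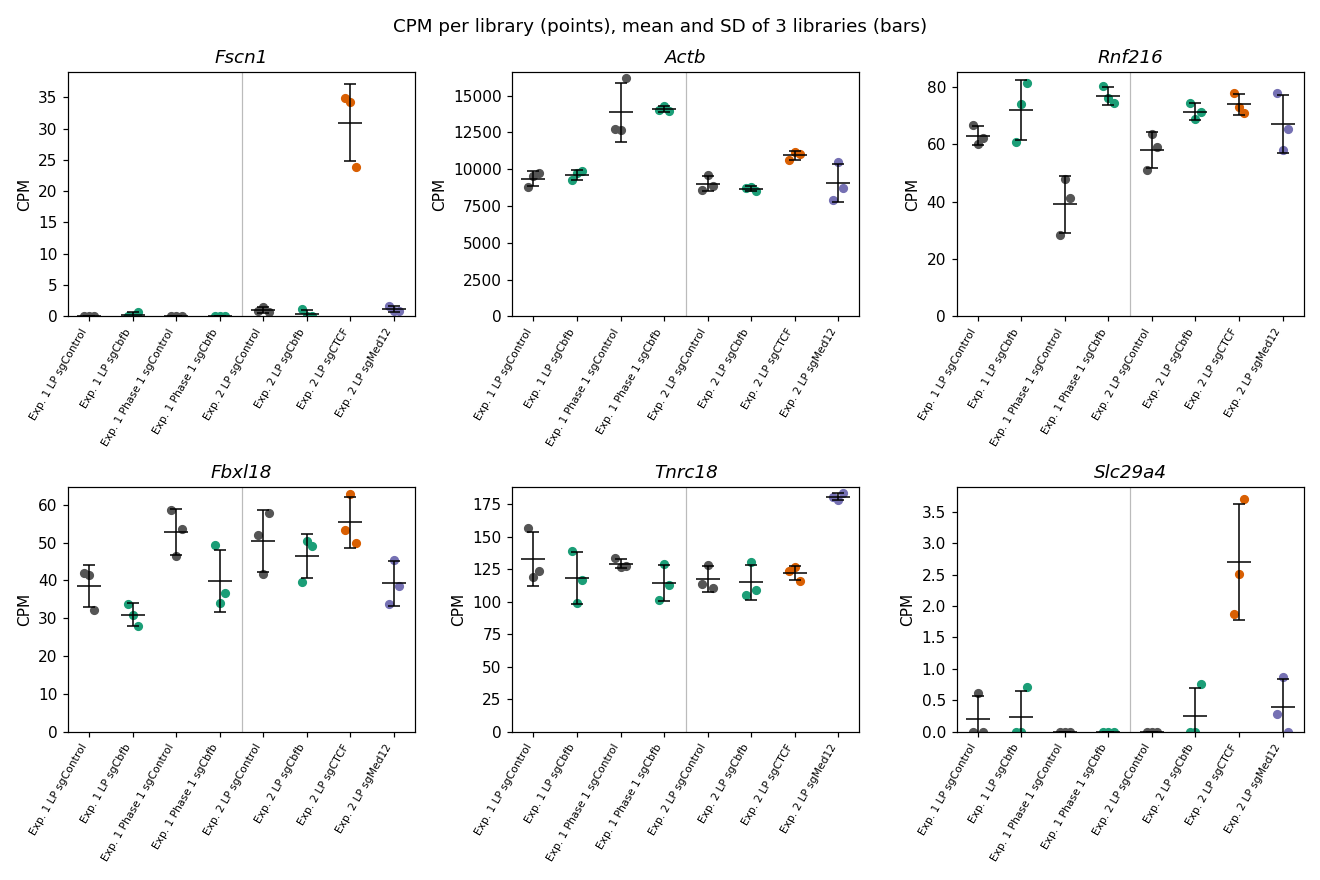
CPM of the 6 genes in each library (points), with the mean and SD of 3 libraries (bars), for the 4 groups of experiment 1 and the 4 of experiment 2, each panel with its own linear axis from 0. *Fscn1* and *Slc29a4* are highest in the sgCTCF group, at 31.0 and 2.69 CPM on average, *Actb* is higher in Phase 1, *Rnf216* is low in sgControl Phase 1 cells and *Tnrc18* is high in sgMed12.

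Among the neighbours, the one whose reads stood apart in sgCTCF was the farthest. *Slc29a4* had 1.88, 2.51 and 3.70 CPM in sgCTCF libraries, from 7, 9 and 16 reads. The 3 sgControl libraries had 0 reads, sgCbfb 3 reads in 1 library, and sgMed12 4 reads over 2 libraries. With 32 reads against a floor of 3 over the sgControl group, the level was at least 10.3-fold higher in sgCTCF. The ratio was 7.22 (2.56 to 28.1) to sgMed12, and 10.1 (3.17 to 51.7) to sgCbfb, whose 3 reads are at the floor. The gene passed the filter on low values through the sgCTCF libraries, so it had to differ there and is given no p. In experiment 1 it had 2 reads in all and was not tested.

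The 4 genes between and beside these, all well expressed, differed by 0.06 to 0.35 on the log2 scale, and none passed the test. For *Actb* and *Rnf216*, every sgCTCF library lay above every sgControl library. The test was limma on log2(CPM + 1) over all genes with 1 CPM or more in at least 3 libraries, with Benjamini-Hochberg adjustment and a threshold of 0.05. In sgCTCF against sgControl it called 10.3% of the 13177 genes tested. Few of 4 genes would pass at that share, and 0 is close to it. At an unadjusted p under 0.05 there were 2 of the 4, *Actb* and *Rnf216*. The share of all genes at that unadjusted threshold is not given, here or in the comparisons below, so counts at it have no background. Of the 4, edgeR called 1, *Actb*, where it called 1331 of the 13177 genes tested.

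*Actb* had 10612, 11203 and 11066 CPM in sgCTCF libraries. In sgControl it had 8592, 9627 and 8866 CPM. The log2 difference was 0.28 ± 0.13 (SE), with an adjusted p of 0.197 from limma. That call depended on the fit: the adjusted p was 0.0283 with edgeR on recovered reads and 0.00586 when the fit held the sgControl and sgCTCF libraries alone. In sgMed12 libraries *Actb* ran from 7937 to 10517 CPM.

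*Rnf216*, the gene nearest to *Fscn1*, had 77.8, 73.0 and 70.7 CPM in sgCTCF libraries. It had 51.2, 63.5 and 58.9 CPM in sgControl libraries. The log2 difference was 0.35 ± 0.13 (SE), with an adjusted p of 0.0922 from limma, which became 0.0313 when the fit held the 2 groups alone. The sgCbfb libraries, at 74.2, 68.6 and 71.3 CPM, lay as high as those of sgCTCF, and both differences rest on the same sgControl libraries.

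*Fbxl18* and *Tnrc18* overlapped between the groups. *Fbxl18* had 53.4, 62.9 and 49.9 CPM in sgCTCF and 52.0, 41.6 and 57.7 CPM in sgControl, a log2 difference of 0.14 ± 0.16 (SE) with a limma adjusted p of 0.669. *Tnrc18* had 123, 126 and 116 CPM in sgCTCF and 113, 128 and 110.3 CPM in sgControl, a log2 difference of 0.06 ± 0.11 (SE) with a limma adjusted p of 0.819. *Tnrc18* lies between *Slc29a4* and *Fscn1*.

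Past the members, 30 other protein-coding genes lie at least in part within 1 Mb of *Fscn1*, and 17 were tested. In sgCTCF none of the 17 passed with limma or with edgeR. With limma 10.3% of all genes tested passed, so few of 17 would pass at that share, and 0 is close to it. At an unadjusted p under 0.05 there was 1 with limma and 2 with edgeR. Their median log2 difference was 0.08, against -0.02 over all genes tested, and they ranged from -0.52 (*Pms2*, a mismatch repair gene) to 0.65 (*Fam220a*). Within 300 kb, 4 of 7 were tested. *Wipi2*, an autophagy gene, had 75.3 ± 5.61 CPM in sgControl and 70.5 ± 6.71 CPM in sgCTCF. The zinc finger gene *Rbak* had 10.3 ± 1.43 and 11.6 ± 5.96 CPM, *Zfp12* had 14.4 ± 0.873 and 15.5 ± 3.86 CPM, and *Zfp316* had 9.76 ± 3.20 and 11.5 ± 2.89 CPM. The other 3, *Olfr718-ps1*, *Spdye4a* and *Spdye4b*, had at most 4 reads in a group.

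**Figure D2:**
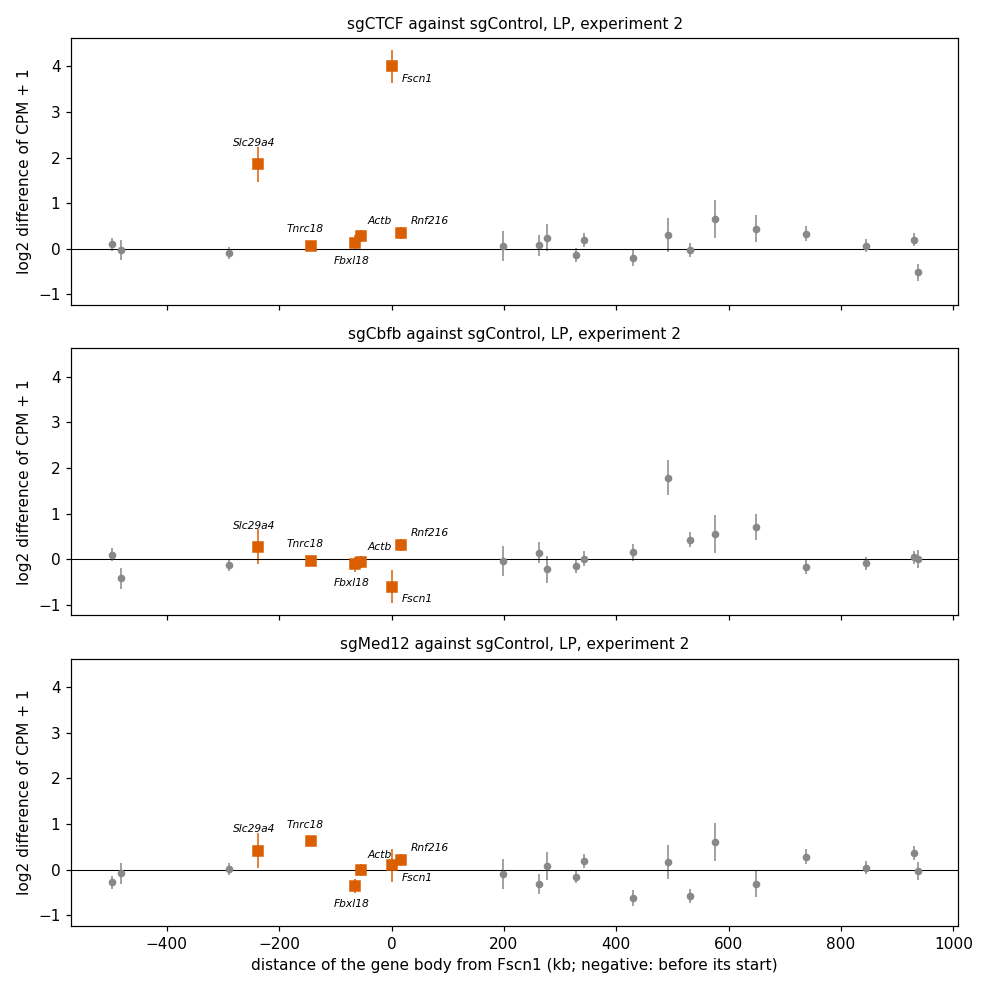
Log2 difference of CPM + 1 from sgControl (vertical axis, bars ± SE of the fit) against the distance of the gene body from *Fscn1* in kb (horizontal axis), for sgCTCF, sgCbfb and sgMed12 LPs of experiment 2; squares are the 6 genes described and circles the 17 others tested within 1 Mb. *Fscn1* at 3.999 and *Slc29a4* at 1.86 stand above all others in sgCTCF, and the genes between them lie from 0.06 to 0.28.

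The same genes were compared under the other deletions of experiment 2. *Fscn1* and *Slc29a4* had few reads in these groups and could hardly pass, so they are not counted here. *Slc29a4* entered the test through the sgCTCF libraries alone. In sgMed12 against sgControl, where 7.22% of all genes passed, *Actb*, *Rnf216* and *Fbxl18* did not pass and *Tnrc18* did. It had 180.3, 178 and 184 CPM in sgMed12 and rose by 0.62 ± 0.11 (SE) on the log2 scale, with a limma adjusted p of 0.00176. All sgMed12 libraries were above every other library of the experiment, the highest of which had 130.3 CPM. *Fbxl18* was 39.2 ± 5.87 CPM in sgMed12 and 50.4 ± 8.14 CPM in sgControl, a log2 difference of -0.35 ± 0.16 (SE) with a limma adjusted p of 0.173. In sgCbfb against sgControl, where 12.5% of all genes passed, *Actb*, *Rnf216*, *Fbxl18* and *Tnrc18* did not pass with limma or edgeR. Of these, 1, *Rnf216*, had an unadjusted p under 0.05. Its log2 difference was 0.30 ± 0.13 (SE), with a limma adjusted p of 0.148.

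Experiment 1 tested 4 of the 6 genes, in LPs and in Phase 1 cells. *Actb* rose on Notch stimulation with either guide. In sgControl cells it went from 8784, 9517 and 9743 CPM in LPs to 12729, 12655 and 16199 CPM in Phase 1, a log2 difference of 0.56 ± 0.10 (SE) with a limma adjusted p of 0.00108. In sgCbfb cells it went from 9251, 9726 and 9851 CPM to 14026, 14333 and 13934 CPM, a log2 difference of 0.55 ± 0.10 (SE) with a limma adjusted p of 0.00266. The share of all genes that passed was 6.48% between the stages with sgControl and 2.24% with sgCbfb. *Actb* did not pass between guides in LPs, at 0.04 ± 0.10 (SE), nor in Phase 1, at 0.03 ± 0.10 (SE), where the small sign of the latter turned with another scaling.

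*Rnf216* was the member that differed between guides in Phase 1. It had 28.2, 47.7 and 41.1 CPM in sgControl Phase 1 cells. *Cbfb* itself did not pass between these groups, at 66.5 ± 19.2 CPM with sgControl and 53.9 ± 9.69 CPM with sgCbfb, with overlapping libraries and a limma adjusted p of 0.591. In sgCbfb Phase 1 cells *Rnf216* had 80.4, 76.0 and 74.3 CPM, which was higher by 0.99 ± 0.20 (SE) on the log2 scale, with a limma adjusted p of 0.0031, in a comparison where 5.97% of genes passed. In LPs the values were 66.7, 60.1 and 62.3 CPM with sgControl and 60.7, 74.0 and 81.4 CPM with sgCbfb, which overlapped, and no member passed with limma or edgeR, or at an unadjusted p under 0.05, in a comparison where 2.85% of genes passed. With sgControl, *Rnf216* fell by 0.71 ± 0.20 (SE) from LPs to Phase 1, with a limma adjusted p of 0.0365. The call was lost with edgeR, at 0.0787, and without any 1 of the LP libraries or Phase 1 replicate 1, where the adjusted p reached 0.152. With sgCbfb the same step was 0.10 ± 0.20 (SE), with a limma adjusted p of 0.913.

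The difference of the sgCbfb effect between the stages was tested as an interaction. It was 0.81 ± 0.29 (SE) for *Rnf216*, with a limma adjusted p of 0.259, so a difference between the stages was not shown. None of the 4 members passed that test with limma or with edgeR, 1 (*Rnf216*) had an unadjusted p under 0.05, and 1.27% of all genes passed. *Fbxl18* had 38.5 ± 5.54 CPM in sgControl LPs and 52.9 ± 6.10 CPM in sgControl Phase 1 cells, and 30.9 ± 3.01 and 39.9 ± 8.21 CPM with sgCbfb. *Tnrc18* had 133 ± 20.8 and 129 ± 3.498 CPM with sgControl, and 118 ± 20.2 and 114 ± 13.9 CPM with sgCbfb. Neither passed in any comparison of this experiment.

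Fascin acts on actin filaments, so other actin genes were counted in sgCTCF against sgControl, where 10.3% of all genes tested passed, 808 higher and 553 lower. *Fscn2* and *Fscn3*, the other fascins, had at most 3 reads in any group and were not tested. *Actg1*, γ-actin, had 27.4 ± 2.12 CPM in sgControl and 35.1 ± 7.45 CPM in sgCTCF, with a limma adjusted p of 0.358, and the other 4 actin genes were too low to test. Of 17 other bundlers and crosslinkers tested, 3 rose and 0 fell, with a median log2 difference of 0.15. These were *Evl* at 1.06 ± 0.15 (SE) and *Enah* at 0.70 ± 0.11, both Ena/VASP proteins of growing filament ends, and the crosslinker filamin A, *Flna*, at 0.58 ± 0.13. Of 16 genes for monomer binding and turnover, 4 rose and 0 fell, with a median of 0.31, led by the profilin *Pfn2* at 1.61 ± 0.32, then the thymosin *Tmsb10* at 0.45 ± 0.11 and the capping protein *Capg* at 0.43 ± 0.14.

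Of 12 genes of the Arp2/3 complex and its activators, which build branched actin, 2 rose and 0 fell, with a median of 0.09, *Hcls1* at 0.48 ± 0.13 and *Actr3* at 0.41 ± 0.12. Of 14 tested targets and partners of serum response factor, 4 rose and 0 fell, with a median of 0.26. The tropomyosin gene *Tpm4* went from 175.5 ± 23.1 CPM to 563.8 ± 13.02 CPM, and *Cnn2*, a calponin, from 9.78 ± 3.37 to 28.3 ± 3.46 CPM. *Fos* had 3.72 ± 0.214 CPM in sgControl and from 6.24 to 50.4 CPM in sgCTCF libraries, a spread wider than its mean of 23.1 CPM. The median over all genes tested in sgCTCF was -0.02. In sgMed12, where 7.22% of all genes passed, *Fos* at 1.92 ± 0.50 (SE) and *Pfn2* at 1.08 ± 0.32 also rose and passed with limma. The other genes named from these lists did not pass in sgMed12. In sgCbfb LPs of experiment 2, where 12.5% of all genes passed, *Capg* passed at 0.77 ± 0.14 (SE). Its 68.0 ± 1.62 CPM there lay above the 53.6 ± 1.70 CPM of sgCTCF. With sgCbfb in experiment 1, *Capg* passed in LPs at 1.08 ± 0.23 (SE) and in Phase 1 at 1.14 ± 0.23 (SE). *Tpm4* passed in Phase 1 at 0.68 ± 0.15 (SE). All genes passed there at shares of 2.85% and 5.97%. No other gene named from these lists passed with sgCbfb. The lists are described by these counts, and nothing particular to them was tested.

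**Figure D3:**
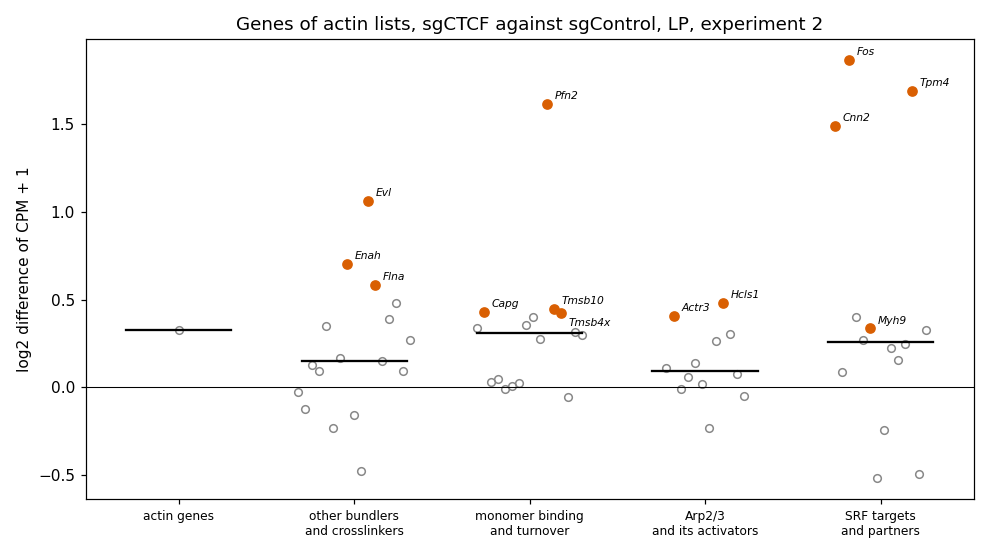
Log2 difference of CPM + 1 between sgCTCF and sgControl LPs of experiment 2 (vertical axis) for the tested genes of 5 actin lists (horizontal axis); filled circles passed the test at an adjusted p under 0.05, open circles did not, and the line is the median of the list. All filled circles are above 0, and the highest are *Fos*, *Tpm4* and *Pfn2*.

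*Fscn1* is a gene of mature dendritic cells, so other genes of such cells were counted. Of 14 listed, 10 were tested in sgCTCF against sgControl and 5 passed, all higher, where 808 of all 13177 genes tested were higher and 553 lower. The chemokine receptor gene *Ccr7* went from 23.4 ± 3.78 to 107.1 ± 14.4 CPM, the costimulatory gene *Cd86* from 4.32 ± 0.879 to 14.2 ± 1.19 CPM, and *Cd74*, the invariant chain, from 15.6 ± 5.27 to 33.4 ± 2.96 CPM. *H2-Ab1* had 3 reads in sgControl and 29 in sgCTCF, and *Ccl5* had 3 and 100. In sgCbfb, where *Fscn1* had 4 reads, *Ccl5* was 21.7 ± 4.93 CPM, above its 8.70 ± 2.27 CPM in sgCTCF, *Cd86* was 11.2 ± 3.84 CPM and *H2-Ab1* had 21 reads, while *Ccr7* and *Cd74* were 7.86 ± 2.18 and 7.47 ± 2.60 CPM. The list summed to between 63.8 and 90.1 CPM in sgControl libraries and between 172.6 and 212.2 CPM in sgCTCF libraries, over 3 libraries each. *Ccr7* alone accounts for most of that gap. Several genes of the list were at or near 0 in sgCTCF: *Cd40* had 0 reads, *Ccl17* and *Ccl22* had 2 each, *Zbtb46* 3 and *Cd83* 4. *Itgax* was present, at 4.95 ± 0.902 CPM against 7.16 ± 2.57 CPM in sgControl. In sgControl Phase 1 cells of experiment 1 the list summed to between 143.8 and 183.9 CPM while *Fscn1* had 0 reads. The part of such cells in the *Fscn1* values was not tested.

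The stromal list, for OP9 cells carried through the sort, summed to between 9.98 and 49.3 CPM in sgControl and between 26.8 and 48.6 CPM in sgCTCF libraries, ranges that overlap. None of its 9 tested genes passed in sgCTCF, where 10.3% of all genes tested did. Of its 19 genes with an entry, 5 had 0 reads in sgCTCF and 6 in sgControl. *Col3a1*, *Dcn*, *Lum* and *Postn* were among these in both groups. The part of OP9 cells in the *Fscn1* values was not tested. The macrophage list summed to between 69.9 and 83.0 CPM in sgControl and between 45.6 and 70.0 CPM in sgCTCF, with 1 of 6 tested genes lower, *F13a1*, and 0 higher. It was 693 to 782 CPM in sgCbfb, where *Fscn1* had 4 reads. Of 7 genes of Notch-stimulated T progenitors, 5 were tested in sgCTCF and 2 passed, both higher. *Tcf7* went from 2.54 ± 0.796 to 18.0 ± 3.43 CPM and *Hes1* from 2.35 ± 0.782 to 15.2 ± 5.92 CPM. *Dtx1* had 0 reads in sgCTCF and also in sgControl and sgMed12. *Ptcra* had 0 reads in sgCTCF alone among the groups of experiment 2. *Hes1* was as high in sgMed12, at 15.7 ± 6.55 CPM. In Phase 1 cells, where that list summed to between 808 and 959 CPM with sgControl, *Fscn1* had 0 reads.

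**Figure D4:**
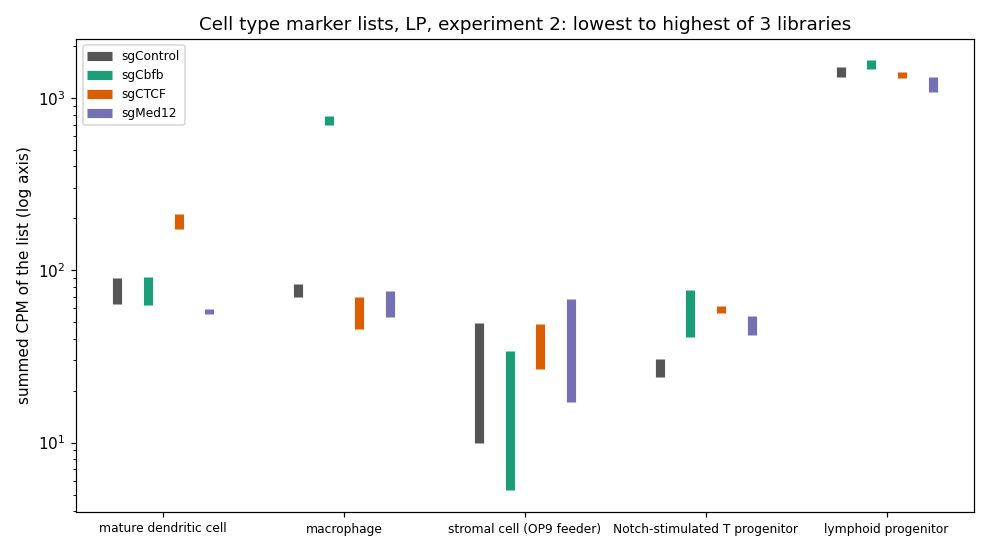
Summed CPM of 5 marker lists (vertical log axis) in the 4 groups of experiment 2; each bar runs from the lowest to the highest of 3 libraries. The mature dendritic cell list lies at 172.6 to 212.2 CPM in sgCTCF, above the other groups, and the stromal list overlaps between sgCTCF and sgControl.

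The genes whose pattern was most like that of *Fscn1* are not its neighbours. Over the 24 libraries, with log2(CPM + 1) centred on each experiment, and among the 8622 genes that averaged above 10 CPM in at least 1 group of both experiments, the highest Pearson r was that of *Ddt* (0.900), then *Grhpr* (0.897), *Dad1* (0.882), *Mtch1* (0.875) and *Dnajc21* (0.875). The libraries share their groups, and these values describe likeness alone. *Fscn1* was nearly silent outside sgCTCF, so r largely orders genes by their rise in sgCTCF. That all 5 were highest in sgCTCF follows from this. *Ddt*, a tautomerase gene, had 174.7 ± 29.6 CPM there against 51.6 ± 2.41 CPM in sgControl. *Grhpr*, a glyoxylate reductase gene, had 430.5 ± 13.6 against 113.7 ± 13.3 CPM. Of the neighbours, *Actb* had an r of 0.353, *Fbxl18* 0.205, *Rnf216* 0.2004 and *Tnrc18* -0.115. These values are no evidence apart from the sgCTCF differences given above. *Slc29a4* was too low to be ranked.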

How the data were processed

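QuantSeq 3′ libraries of 24 samples, 3 per group, were analysed in 2 experiments. Per the study's methods, fastp trimmed the reads and STAR aligned them to mm10. The deposited values are named TPM but are CPM: each is a whole multiple of the value of 1 read whatever the gene's length. The counter, annotation and strand setting are not given in the sources used here. Whole reads were recovered for 100.0% of values (within 0.05 of a read) by a least-squares estimate of that step, which matched the value of 1 read on the last line of each table. The authors' mean column for sgControl was not used.

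Genes with at least 1 CPM in 3 libraries entered limma 3.58.1 (R 4.3.3), run on log2(CPM + 1), which understates changes of low genes, with all 4 groups of an experiment in 1 fit, a variance trend and Benjamini-Hochberg adjustment over the whole table. edgeR 4.0.16 (quasi-likelihood, TMM) on recovered reads was an alternative. Both were tested on simulated data. Alternatives were pseudocounts of 0.1 and 5, median-of-ratios scaling, no filter, a filter at a group mean of 10 CPM, the compared groups alone, the replicate number as a block, and each library left out. Floors were 3 reads over a group, and intervals cover counting error only. The members and lists were chosen with earlier results of these data known. Named were the members, genes within 300 kb of *Fscn1* or passing within 1 Mb in sgCTCF, up to 3 passing genes per actin list, *Fscn2*, *Fscn3* and *Actg1*, the 5 patterns most like *Fscn1*, and targeted genes. *Pms2*, *Fam220a* and the marker genes given with values were named after their values were seen. The study calls its replicates biological, but all come from Cas9-LP lines, so p-values measure the spread between these libraries.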

Additional observations from a re-analysis of the deposited data

How the results depend on the processing

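For *Fscn1* in sgCTCF the log2 difference was 3.999, and it was 4.96 with edgeR, 4.86 with a pseudocount of 0.1 and 2.57 with a pseudocount of 5, since the sgControl level is a few reads. For *Slc29a4* it was 1.86, and 6.36, 4.75 and 0.61 in the same order, and without any 1 sgCTCF library the gene no longer passed the filter. *Actb* in sgCTCF passed with edgeR (0.31, adjusted p = 0.0283) and with the compared groups alone (0.28, adjusted p = 0.00586), and over its alternatives the adjusted p ran to 0.545. *Rnf216* in sgCTCF passed with the compared groups alone (0.35, adjusted p = 0.0313), over a range to 0.342. With those groups alone, 1 of the other genes within 1 Mb of *Fscn1* passed in sgCTCF, *Pms2*. The cause of these changes was not tested. *Fbxl18* and *Tnrc18* in sgCTCF stayed on the same side of the threshold in every alternative run, as did the calls of *Actb* between stages, *Rnf216* in Phase 1 and *Tnrc18* in sgMed12.

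The fall of *Rnf216* from LPs to Phase 1 with sgControl did not pass with edgeR (-0.63), median-of-ratios scaling (-0.64) or the compared groups alone (-0.71), and with libraries left out it ranged from -0.87 to -0.50, passing in 2 of 6 cases; sgControl LP replicates 1, 2 and 3 and Phase 1 replicate 1 each ended the call. *Fbxl18* in sgMed12 passed without sgMed12 replicate 2 (-0.46, adjusted p = 0.0361).

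Values near 0, none of them passing, turned sign. With edgeR and median-of-ratios scaling, *Actb* was -0.024 and -0.016 in sgCbfb Phase 1, 0.045 and 0.044 in sgMed12, and *Tnrc18* was 0.014 and 0.039 between stages with sgControl. With libraries left out, *Actb* ranged from -0.0035 to 0.071 in sgCbfb LPs of experiment 1, -0.027 to 0.15 in sgCbfb Phase 1, -0.11 to 0.090 in sgMed12 and -0.067 to 0.11 in the interaction. *Tnrc18* ranged from -0.16 to 0.082 and -0.10 to 0.095 between stages with sgCbfb and sgControl, -0.13 to 0.032 in sgCbfb LPs of experiment 2 and -0.13 to 0.11 in the interaction. *Fbxl18* ranged from -0.26 to 0.017 in the interaction, *Fscn1* from -0.084 to 0.26 in sgMed12 and *Rnf216* from -0.014 to 0.20 between stages with sgCbfb.

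Same-numbered libraries deviated together weakly at most. The correlation of their deviations from group means ran from -0.04 to 0.139 over 12 pairs in experiment 1. In experiment 2 it ran from 0.022 to 0.185 over 9 pairs, all above 0, so a small shared part is possible. With the replicate number as a block, more genes passed in every comparison, as with 1438 in sgCTCF against 1361 without it. No call of a member changed. The interaction cannot be fitted with fewer groups. Over all genes, the compared groups alone gave 2221 calls in sgCTCF, 139 in sgMed12 against 952, 601 in sgCbfb LPs of experiment 1 against 377, 640 between stages with sgCbfb against 297, and 542 with sgControl against 858. No filter gave 325 in sgMed12.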
